A study of Homo sapiens with 26 samples.

Results

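CCN1 and 6 further genes that textbooks place downstream of the transcriptional coactivator YAP or of serum response factor are described here in RNA captured near the plasma membrane of HEK293T cells. The set is CCN1, CCN2, ANKRD1, AMOTL2, LATS2, THBS1 and SRF, 7 of the 25745 genes in the deposited table, found by gene symbol. The older symbols CYR61 and CTGF stand for CCN1 and CCN2 in the GENCODE 29 annotation. The set was selected on earlier measured values of these libraries, the labeled minus control difference of CCN1 in log2 FPKM, with further genes of the same pathways, so labeled minus control differences of the 7 genes are given as descriptions with their standard errors and without a test.

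HEK293T cells are an established line of human embryonic kidney origin expressing SV40 large T antigen. Every library came from HEK293T cells stably expressing a fusion of APEX2, an engineered ascorbate peroxidase that uses hydrogen peroxide to turn biotin-phenol into a short-lived radical that tags nearby molecules, and RNA bound to streptavidin beads was sequenced. The 4 constructs were Lyn11 and Lck, which put APEX2 on the inside of the membrane, and CD28 and PDGFR, which put it on the outside. Lyn11 had 4 labeled and 4 control libraries, and Lck, CD28 and PDGFR each had 3 labeled and 3 control libraries. The labels list 30 min of biotin-phenol and 1 min of 1 mM hydrogen peroxide for all libraries, controls included, and the step left out of the unlabeled controls is not given in the sources used here. Neither is the promoter driving each fusion or whether a line was 1 clone, and the design text calls the replicates biological.

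YAP and its paralog TAZ are held in the cytoplasm by the Hippo kinase cascade. When the cascade is quiet they enter the nucleus and bind TEAD factors, which recognise a short DNA core. Serum response factor, the product of SRF, binds the CArG box and works with actin-regulated MRTF cofactors or with ERK-regulated ternary complex factors (TCF). CCN1 is known as a gene that both routes can drive within minutes of serum or mechanical stimulation.

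By role, CCN1 and CCN2 encode secreted matricellular proteins that bind integrins, and THBS1 encodes thrombospondin-1, another matricellular protein and an inhibitor of blood vessel growth. ANKRD1 encodes an ankyrin repeat protein of muscle and nucleus that is widely used as a reporter of YAP activity. AMOTL2, an angiomotin-like scaffold, and LATS2, a kinase that phosphorylates YAP, are YAP targets that restrain YAP in turn. SRF encodes the transcription factor itself and is among its own targets.

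The upstream promoter sequences of SRF, CCN2 and ANKRD1 are shown because they carry the binding motifs by which these genes are assigned to SRF or to YAP and TEAD. Each is the 250 bases before a RefSeq transcription start on GRCh38.p14, written 5′ to 3′ on the strand of the gene, with matches to the searched motifs in capitals. In SRF, at chr6:43171019-43171268 on the plus strand, the capitals mark 2 CArG boxes before the first of its 2 listed starts.
SRF: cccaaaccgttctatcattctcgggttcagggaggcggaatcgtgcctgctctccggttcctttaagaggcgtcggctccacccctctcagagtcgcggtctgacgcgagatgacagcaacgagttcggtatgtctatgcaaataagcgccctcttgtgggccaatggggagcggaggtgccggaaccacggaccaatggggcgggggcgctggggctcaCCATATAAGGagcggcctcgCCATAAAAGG
In CCN2, at chr6:131951373-131951622 on the minus strand, the capitals mark 3 copies of the TEAD core GGAATG.
CCN2: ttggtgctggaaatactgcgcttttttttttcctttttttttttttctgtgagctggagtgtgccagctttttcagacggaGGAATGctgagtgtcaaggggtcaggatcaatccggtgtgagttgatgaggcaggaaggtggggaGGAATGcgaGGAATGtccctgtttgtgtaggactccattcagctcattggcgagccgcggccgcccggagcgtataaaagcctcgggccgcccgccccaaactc
In ANKRD1, at chr10:90921088-90921337 on the minus strand, the capitals mark 2 copies of GGAATG and, between them, 1 match to the AP-1 motif TGANTCA.
ANKRD1: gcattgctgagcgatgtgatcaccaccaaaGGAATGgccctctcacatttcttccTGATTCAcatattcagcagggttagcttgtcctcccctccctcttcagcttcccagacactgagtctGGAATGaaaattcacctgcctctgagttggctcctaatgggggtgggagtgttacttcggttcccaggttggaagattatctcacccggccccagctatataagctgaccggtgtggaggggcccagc

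Both strands of the promoters were searched for the CArG box, GGAATG and TGANTCA, letters that do not contain one another. Counted from the start, the SRF boxes lay at -30 to -21 and -10 to -1. The 3 cores of CCN2 began at -169, -104 and -95, and those of ANKRD1 at -220 and -128. AMOTL2 and THBS1 each had 1 GGAATG before the start, beginning at -69 on the reverse strand and at -46, and LATS2 had 1 just after the start, at +10. The CArG box was thus found in 1 of the 6 genes with a promoter entry and GGAATG, anywhere in the window, in 5 of 6. Over all 35116 promoters of the same length in the table, 1.293% held a CArG box, 14.033% held GGAATG and 7.709% held TGANTCA. A match describes the letters and says nothing of binding in these cells.

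All 7 genes were found in the table on hg38 with the same identifier version as GENCODE 29. CCN1 (ENSG00000142871.16) lies on chromosome 1, 85580761 to 85583962, plus strand, and CCN2 (ENSG00000118523.5) on chromosome 6, 131948176 to 131951373, minus strand. ANKRD1 (ENSG00000148677.6) lies on chromosome 10, 90912096 to 90921276, AMOTL2 (ENSG00000114019.14) on chromosome 3, 134355874 to 134375479, and LATS2 (ENSG00000150457.8) on chromosome 13, 20973032 to 21061547, all on the minus strand. THBS1 (ENSG00000137801.10) lies on chromosome 15, 39581079 to 39599466, and SRF (ENSG00000112658.7) on chromosome 6, 43171299 to 43181507, both on the plus strand. Values are whole-gene sums over exons. Exons of CCN1, ANKRD1, LATS2 and SRF overlap no exon of another gene, whereas 195 exon bases of CCN2 face an antisense gene, 411 and 448 bases of THBS1 face AC037198.2 and FSIP1, and 187 bases of AMOTL2 coincide with the pseudogene RPL39P5. Library strandedness is not given in the sources used here, so reads of facing genes cannot be told apart.

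The unit throughout is log2 FPKM, a level per kilobase of exon that is also scaled to the size of each library, and a step of 1 on it is a doubling. Read numbers recovered from these values and summed over 24220 genes came to 17.1 to 30.96 M (1e6) in the 14 inside libraries and 10.03 to 14.35 M in the 12 outside libraries, so depth cannot be told apart from the side of the membrane. Genes at 0 reads numbered 3123 in CD28 labeled replicate 2 and 2991 in PDGFR control replicate 2, far from the other replicates of their groups, and results that rest on them are also given without them. CD28 control replicate 2 also stood apart in its group, with 1531 such genes against 427 and 227. It had the lowest recovered depth, 10.03 M, and was not among the libraries left out together. Of 6 HEK293T markers, 5 were in the table (KRT8, KRT18, VIM, NEFM and PAX2), with a summed level of 62.0 to 109 FPKM in labeled and 58.9 to 114 FPKM in control libraries. Fibroblast markers, of which 3 of 6 were in the table, summed to 4.78 to 10.4 FPKM in labeled and 5.27 to 9.78 FPKM in control libraries. The sum of 2 of 5 endothelial markers was 0.0947 to 0.409 FPKM in labeled and 0.0895 to 0.34 FPKM in control libraries, and that of 3 of 5 blood markers 2.71 to 5.01 FPKM in labeled and 2.63 to 5.96 FPKM in control libraries. Whether markers of other cells take part in any result was not tested.

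SRF was the most abundant of the 7 genes and THBS1 the least. Averaged over the 13 control libraries, SRF stood at 4.36 log2 FPKM, above 92.0% of the genes in the table. CCN1, AMOTL2 and LATS2 followed at 1.99, 1.92 and 1.92 log2 FPKM, near the middle of the table, and their control libraries overlapped. CCN2 and ANKRD1 stood at 0.03 and -0.01 log2 FPKM, above 26.3% and 25.8% of the genes in the table, and THBS1 at -1.64 log2 FPKM. Across libraries the order of spread was different: CCN1 ranged over 3.69 log2 units and ANKRD1 over 3.34, against 0.91 for SRF. THBS1 was above 0 log2 FPKM in 0 of 26 libraries and did not pass the filter on low values, so 6 of the 7 genes entered the fit and THBS1 is taken from a fit of all genes without that filter.

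CCN1 was higher in labeled than in control libraries with every construct. It stood at 3.83, 3.88, 3.92 and 3.69 log2 FPKM in the 4 Lyn11 labeled libraries, against 2.86, 2.71, 2.54 and 2.51 in the 4 Lyn11 controls. With Lck it stood at 4.14, 3.79 and 3.59 log2 FPKM in labeled libraries, against 2.19, 2.45 and 2.18 in controls. On the inside of the membrane every labeled library was thus above every control, with 708 to 918 reads in labeled libraries and 233 to 558 reads in controls. On the outside, the CD28 labeled libraries held 2.31, 2.54 and 2.45 log2 FPKM of CCN1, against 1.94, 0.45 and 1.77 in CD28 controls. The PDGFR labeled libraries held 2.16, 2.53 and 1.80 log2 FPKM, against 1.63, 1.07 and 1.60 in PDGFR controls. The groups did not overlap there either, but the gap between the lowest labeled and the highest control library was 0.37 for CD28 and 0.17 for PDGFR, against 0.83 for Lyn11 and 1.14 for Lck. Outside libraries held 121 to 207 reads of CCN1 when labeled and 41 to 133 as controls.

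**Figure D1:**
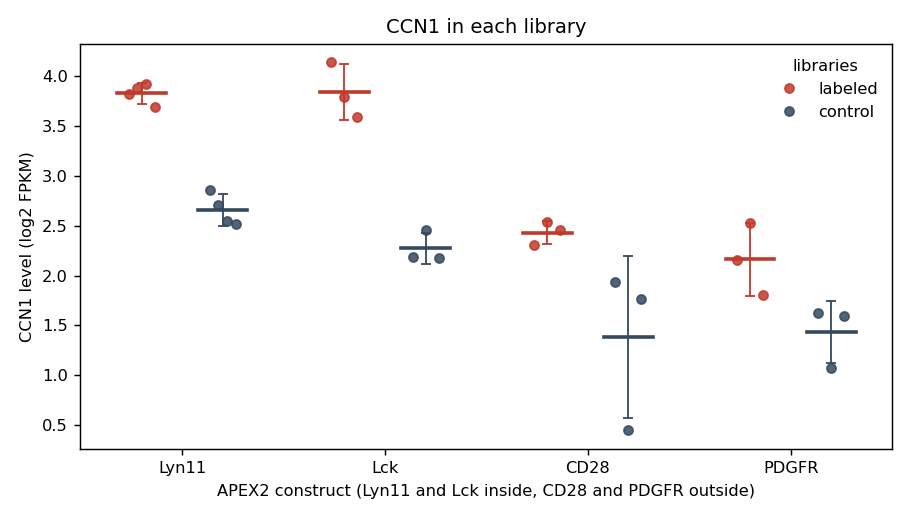
CCN1 level (log2 FPKM, vertical axis) in each of the 26 libraries by construct (horizontal axis), labeled libraries in red to the left of their controls in dark blue. Points are libraries, horizontal bars group means and whiskers SD; labeled points lie above control points in all 4 constructs, and, labeled with labeled and control with control, the inside constructs lie above the outside ones.

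Group means of CCN1 were 3.83 ± 0.10 log2 FPKM in Lyn11 labeled and 2.66 ± 0.16 in Lyn11 control libraries (SD, n = 4 each), and 3.84 ± 0.28 in Lck labeled and 2.28 ± 0.15 in Lck control libraries (SD, n = 3 each). They were 2.43 ± 0.12 in CD28 labeled and 1.38 ± 0.82 in CD28 control libraries, and 2.16 ± 0.36 in PDGFR labeled and 1.43 ± 0.31 in PDGFR control libraries (SD, n = 3 each). The labeled minus control difference of CCN1 was 1.17 ± 0.24 with Lyn11, 1.56 ± 0.27 with Lck, 1.05 ± 0.27 with CD28 and 0.73 ± 0.27 with PDGFR (log2 units, standard error of the fit), and 1.13 ± 0.13 averaged over the constructs, a 2.19-fold difference. The wide CD28 control group rested on replicate 2, with 41 reads of CCN1, and without that library the CD28 difference was 0.58. Without CD28 labeled replicate 2 and PDGFR control replicate 2 together, the average was 1.07 ± 0.14 and the PDGFR difference 0.55 ± 0.30. Labeled libraries lay wholly above controls in all 4 constructs for 0.512% of the 22284 genes tested, and in Lyn11, Lck, CD28 and PDGFR singly for 3.4%, 12.9%, 7.44% and 7.53%. Since CCN1 was chosen with these values known, its place among those genes is not evidence about the set. In bulk libraries of bead-bound RNA, fewer cells with an RNA, less of that RNA per cell and less capture of it cannot be told apart.

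CCN2, the close paralog of CCN1, was higher in labeled libraries on the inside and overlapped between the groups on the outside. It stood at 1.09, 1.38, 1.08 and 1.01 log2 FPKM in Lyn11 labeled libraries, against 0.24, 0.81, 0.37 and 0.05 in Lyn11 controls. With Lck it stood at 1.07, 0.88 and 0.89 log2 FPKM in labeled libraries, against 0.20, 0.45 and 0.22 in controls. Neither inside construct had an overlap, though with Lyn11 the gap was 0.20 and came from control replicate 2. Of all genes tested, 3.4% with Lyn11 and 12.9% with Lck lay wholly higher in labeled libraries. The CD28 labeled libraries stood at -0.51, -1.06 and 0.25 log2 FPKM, against 0.22, -0.64 and -0.02 in CD28 controls. The PDGFR labeled libraries stood at 0.24, -0.36 and -0.12 log2 FPKM, against -0.57, -0.16 and -0.84 in PDGFR controls. Both outside constructs overlapped, on 15 to 40 reads a labeled library and 18 to 37 a control. The labeled minus control difference of CCN2 was 0.77 ± 0.27 with Lyn11, 0.66 ± 0.32 with Lck, -0.30 ± 0.32 with CD28, 0.44 ± 0.32 with PDGFR and 0.39 ± 0.15 on average. Without CD28 labeled replicate 2 and PDGFR control replicate 2 these were 0.01 ± 0.30 for CD28, 0.63 ± 0.30 for PDGFR and 0.52 ± 0.14 on average.

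CCN1 exceeded CCN2 in all 26 libraries, by 1.09 to 3.60 log2 units per exon length. The distance between the paralogs was 2.69 ± 0.15 in Lyn11 labeled and 2.29 ± 0.32 in Lyn11 control libraries (SD, n = 4 each), and 2.89 ± 0.19 in Lck labeled and 1.98 ± 0.02 in Lck control libraries (SD, n = 3 each). It was 2.87 ± 0.70 in CD28 labeled and 1.53 ± 0.38 in CD28 control libraries, and 2.24 ± 0.56 in PDGFR labeled and 1.95 ± 0.64 in PDGFR control libraries (SD, n = 3 each). The labeled mean was the wider one with Lyn11, Lck and CD28. With PDGFR the order rested on control replicate 2: without it the PDGFR control mean was 2.32, above the labeled mean, and the CD28 labeled mean without its replicate 2 was 2.51.

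ANKRD1 varied most among replicates, with a pooled SD within groups of 0.56 log2 units, against 0.34 for CCN1. It stood at 1.41, 0.61, 1.51 and 0.30 log2 FPKM in Lyn11 labeled libraries, against 1.31, 0.76, 0.59 and 0.85 in Lyn11 controls. With Lck it stood at 1.13, 1.31 and 1.16 log2 FPKM in labeled libraries, against 0.59, 0.89 and 0.67 in controls. Lck was the single construct without an overlap for ANKRD1, and 12.9% of all genes tested lay wholly higher in Lck labeled libraries. The CD28 labeled libraries stood at -0.96, -1.67 and -0.01 log2 FPKM, against -1.82, -0.65 and -1.35 in CD28 controls. The PDGFR labeled libraries stood at -0.49, -1.73 and -1.69 log2 FPKM, against 0.19, -0.88 and -1.28 in PDGFR controls. Outside values rested on 8 to 28 reads a labeled library and 7 to 39 a control. The labeled minus control difference of ANKRD1 was 0.08 ± 0.40 with Lyn11, 0.48 ± 0.46 with Lck, 0.40 ± 0.46 with CD28, -0.65 ± 0.46 with PDGFR and 0.08 ± 0.23 on average. Leaving out 1 library at a time gave -0.11 to 0.30 with Lyn11, 0.42 to 0.57 with Lck, -0.04 to 0.79 with CD28 and -1.06 to -0.23 with PDGFR. The ANKRD1 difference was 0.79 ± 0.49 with CD28 and -0.76 ± 0.49 with PDGFR without CD28 labeled replicate 2 and PDGFR control replicate 2.

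**Figure D2:**
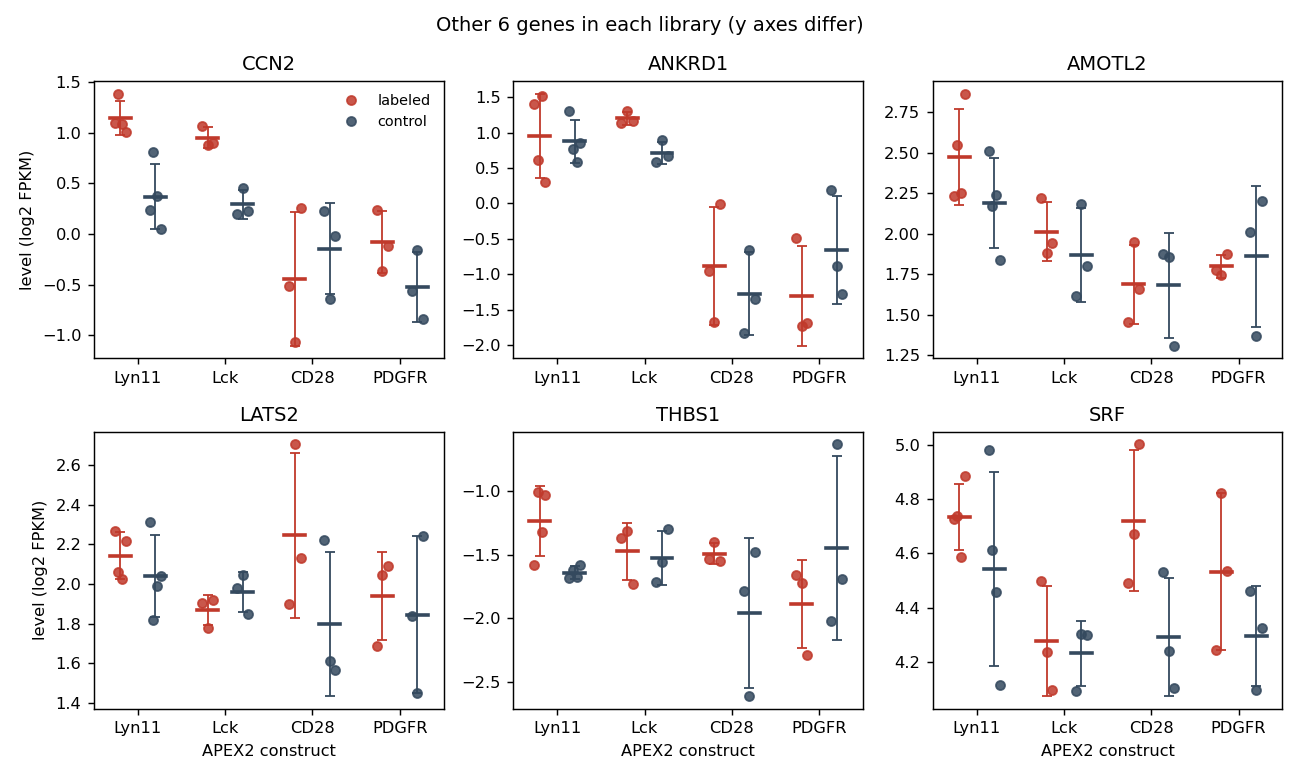
Level (log2 FPKM, vertical axes, which differ between panels) of CCN2, ANKRD1, AMOTL2, LATS2, THBS1 and SRF in each library by construct, labeled libraries in red to the left of controls in dark blue, with group mean and SD. Labeled and control points separate for CCN2 with Lyn11 and Lck and for ANKRD1 with Lck, and overlap elsewhere.

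The feedback regulators AMOTL2 and LATS2 overlapped between labeled and control libraries in every construct. AMOTL2 ranged over 2.23 to 2.87 log2 FPKM in Lyn11 labeled libraries, against 1.84 to 2.51 in Lyn11 controls, and over 1.88 to 2.22 in Lck labeled libraries, against 1.62 to 2.19 in Lck controls. It ranged over 1.46 to 1.95 log2 FPKM in CD28 labeled libraries, against 1.31 to 1.88 in CD28 controls, and over 1.75 to 1.88 in PDGFR labeled libraries, against 1.37 to 2.20 in PDGFR controls. The labeled minus control difference of AMOTL2 ran from -0.06 ± 0.24 with PDGFR to 0.29 ± 0.20 with Lyn11 and was 0.09 ± 0.11 on average. The AMOTL2 difference was -0.31 ± 0.23 with PDGFR and -0.12 ± 0.23 with CD28 without CD28 labeled replicate 2 and PDGFR control replicate 2. LATS2 ranged over 2.02 to 2.27 log2 FPKM in Lyn11 labeled libraries, against 1.82 to 2.32 in Lyn11 controls, and over 1.78 to 1.92 in Lck labeled libraries, against 1.85 to 2.05 in Lck controls. It ranged over 1.90 to 2.71 log2 FPKM in CD28 labeled libraries, against 1.57 to 2.22 in CD28 controls, and over 1.69 to 2.09 in PDGFR labeled libraries, against 1.45 to 2.24 in PDGFR controls. The difference of LATS2 ran from -0.09 ± 0.22 with Lck to 0.45 ± 0.22 with CD28 and was 0.14 ± 0.11 on average. Without those 2 libraries the LATS2 difference was 0.22 ± 0.20 with CD28 and, with its sign turned, -0.10 ± 0.20 with PDGFR, and CD28 labeled replicate 2 was the highest of its group, at 2.71 log2 FPKM. AMOTL2 was measured on 183 to 1069 reads a library and LATS2 on 204 to 870.

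SRF itself was measured on 895 to 4159 reads a library. It stood at 4.73, 4.74, 4.59 and 4.89 log2 FPKM in Lyn11 labeled libraries, against 4.98, 4.61, 4.46 and 4.12 in Lyn11 controls. With Lck it stood at 4.50, 4.24 and 4.10 log2 FPKM in labeled libraries, against 4.10, 4.30 and 4.30 in controls. Both inside constructs overlapped. The CD28 labeled libraries stood at 4.49, 4.67 and 5.00 log2 FPKM, against 4.53, 4.24 and 4.11 in CD28 controls, an overlap of 0.04. The PDGFR labeled libraries stood at 4.24, 4.82 and 4.53 log2 FPKM, against 4.46, 4.10 and 4.33 in PDGFR controls. The labeled minus control difference of SRF was 0.19 ± 0.16 with Lyn11, 0.04 ± 0.19 with Lck, 0.43 ± 0.19 with CD28, 0.24 ± 0.19 with PDGFR and 0.23 ± 0.09 on average. It was 0.45 ± 0.21 with CD28 and 0.14 ± 0.21 with PDGFR without CD28 labeled replicate 2 and PDGFR control replicate 2.

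THBS1 was the lowest of the set, with 65 to 111 reads in inside labeled libraries and 57 to 88 in inside controls, and 26 to 48 reads in outside labeled libraries and 18 to 80 in outside controls. With Lyn11 it stood at -1.58, -1.01, -1.32 and -1.03 log2 FPKM in labeled libraries, against -1.68, -1.62, -1.68 and -1.58 in controls, where the lowest labeled and the highest control library nearly coincided. PDGFR control replicate 2, 1 of the 2 libraries with the most genes at 0 reads, held the highest value of THBS1 anywhere, -0.63 log2 FPKM. The labeled minus control difference of THBS1, from the fit without a filter, ran from -0.44 ± 0.37 with PDGFR to 0.46 ± 0.37 with CD28 and was 0.12 ± 0.18 on average. The PDGFR end of that range rested on control replicate 2: without it and CD28 labeled replicate 2 the THBS1 difference was -0.03 ± 0.36 with PDGFR, 0.42 ± 0.36 with CD28 and 0.21 ± 0.17 on average. The CD28 end rested on CD28 control replicate 2, at -2.61 log2 FPKM on 18 reads. Without that library the CD28 difference of THBS1 was 0.14.

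**Figure D3:**
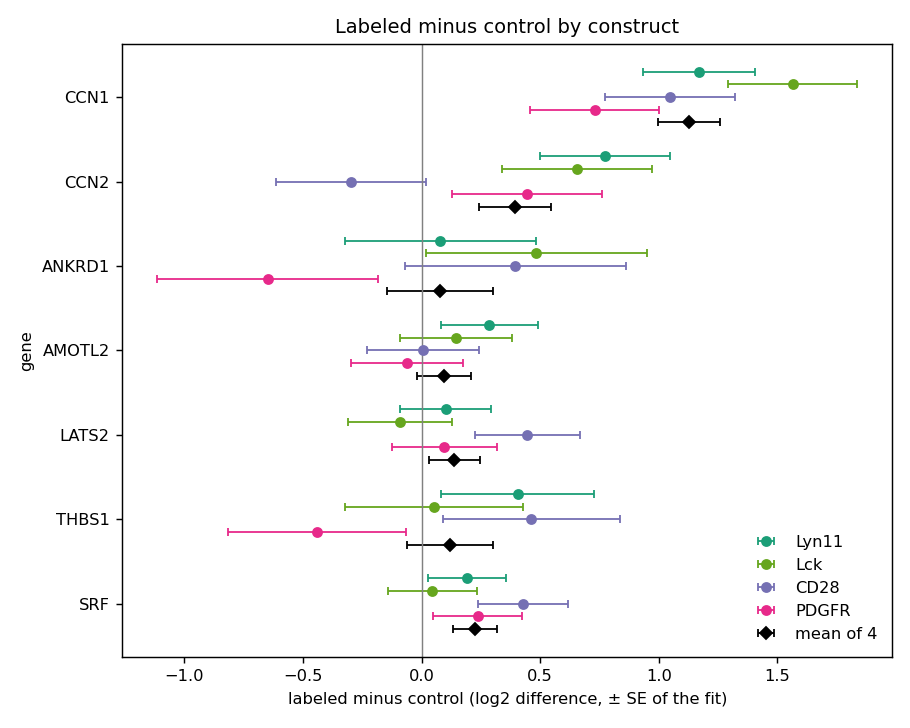
Labeled minus control difference (log2 units, horizontal axis) of the 7 genes (vertical axis) with each construct (colored circles) and averaged over the 4 constructs (black diamonds), with the standard error of the fit. CCN1 lies right of 0 with every construct, CCN2 with 3 of 4, and the averages of the other genes lie between 0.08 and 0.23.

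Set side by side, the 6 fitted genes had a median labeled minus control difference of 0.18 on average over the constructs, against -0.0052 for all 22284 genes tested. The set was selected on this contrast of CCN1, so the distance between the medians is not evidence about the set. CCN1 at 1.13 and CCN2 at 0.39 were the highest of the 6 and the other 4 lay between 0.08 and 0.23. Without CD28 labeled replicate 2 and PDGFR control replicate 2 those 4 averages were 0.15 for ANKRD1, 0.0003 for AMOTL2, 0.03 for LATS2 and 0.21 for SRF.

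Whether labeling differed between the sides of the membrane was tested as a difference of differences, a contrast by which the genes were not chosen. For CCN1 the labeled minus control difference averaged over the inside constructs exceeded that of the outside constructs by 0.48 ± 0.26 (95% interval -0.07 to 1.03; limma with Benjamini-Hochberg adjustment over all genes, adjusted p = 0.769). For CCN2 the excess was 0.64 ± 0.31 (95% interval 0.0048 to 1.28; limma adjusted p = 0.750). None of the 6 genes passed the threshold of an adjusted p under 0.05 by limma or by limma voom, CCN2 alone had an unadjusted p under 0.05, and over all genes 0.00449% passed, with 1453 at an unadjusted p under 0.05. For the other genes the excess was 0.41 ± 0.45 for ANKRD1, 0.24 ± 0.23 for AMOTL2, -0.27 ± 0.21 for LATS2 and -0.21 ± 0.18 for SRF. The intervals leave room for a difference of 1 log2 unit in CCN1 and CCN2 and for none at all in CCN1.

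Constructs on the same side were compared in the same way. The CCN1 difference with Lyn11 minus that with Lck was -0.39 ± 0.36 (95% interval -1.15 to 0.36; limma adjusted p = 1.00), and that with CD28 minus that with PDGFR was 0.32 ± 0.39 (95% interval -0.49 to 1.12; limma adjusted p = 0.817). Without CD28 control replicate 2 the sign of the second turned, to -0.15. None of the 6 genes passed in either contrast by limma or by limma voom or had an unadjusted p under 0.05, where 0.0% and 0.0494% of all genes passed by limma and 71 and 2079 genes had an unadjusted p under 0.05. The widest estimates between the outside constructs were 1.04 ± 0.66 for ANKRD1 and -0.74 ± 0.45 for CCN2, both on few reads.

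The control libraries differed between the lines for CCN1 and ANKRD1. In the 7 control libraries of the inside constructs CCN1 stood at 2.18 to 2.86 log2 FPKM with a median of 2.51, against 0.45 to 1.94 with a median of 1.61 in the 6 control libraries of the outside constructs, so the groups did not overlap. Scaled to recovered depth alone, the medians were 14.0 CPM inside and 7.45 CPM outside. ANKRD1 stood at 0.59 to 1.31 log2 FPKM with a median of 0.76 in inside controls, against -1.82 to 0.19 with a median of -1.08 in outside controls, again without an overlap. Of all genes tested, 3.11% lay wholly higher in the inside controls.

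Among controls, CCN1 was higher inside by 1.06 ± 0.19 log2 units (95% interval 0.67 to 1.45; limma adjusted p = 0.00132), higher in 7 of 7 inside libraries than in any outside one. ANKRD1 was higher inside by 1.76 ± 0.32 (95% interval 1.10 to 2.42; limma adjusted p = 0.00154), a 3.39-fold difference, again in 7 of 7 libraries. Both passed under all 34 alternatives, with adjusted p up to 0.00528 for CCN1 and 0.00582 for ANKRD1, although the ANKRD1 difference was 0.83 after a further 1 FPKM was added before the logarithm. Without CD28 labeled replicate 2 and PDGFR control replicate 2 the ANKRD1 difference was 1.71 ± 0.32. CCN1 and ANKRD1 were 2 of 6 members past the threshold, where 11.2% of all genes passed, 7.34% higher and 3.84% lower inside. That balance turned with limma voom, where 869 of 20945 genes were higher inside and 1482 lower. ANKRD1 was above 0 log2 FPKM, the filter level, in every inside library and, outside, only in PDGFR control replicate 1. It entered the fit through the group where it is high, so its call and its part in that count are tied to the filter. CCN2 was higher inside by 0.66 ± 0.22 (limma adjusted p = 0.0524), just short of the threshold, and passed in 9 of 34 alternatives, among them the fits without CD28 labeled replicate 2 or 3, CD28 control replicate 1, PDGFR control replicate 2 or Lyn11 control replicate 4. AMOTL2, LATS2 and SRF gave 0.26 ± 0.16, 0.18 ± 0.15 and 0.09 ± 0.13 and did not pass, and THBS1, without the filter, gave 0.12 ± 0.26, which was -0.04 without CD28 control replicate 2, -0.02 without PDGFR control replicate 1 and 0.32 without PDGFR control replicate 2. The HEK293T markers summed to 85.3 to 114 FPKM in inside controls and 58.9 to 92.2 FPKM in outside controls, and the fibroblast markers to 5.27 to 9.45 FPKM in inside and 5.54 to 9.78 FPKM in outside controls. The endothelial markers summed to 0.168 to 0.34 FPKM in inside and 0.0895 to 0.25 FPKM in outside controls, and the blood markers to 2.63 to 5.28 FPKM in inside and 2.99 to 5.96 FPKM in outside controls. The part of these markers in the result was not tested. Construct, cell line, library batch and the lower depth of the outside libraries cannot be told apart in this comparison.

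**Figure D4:**
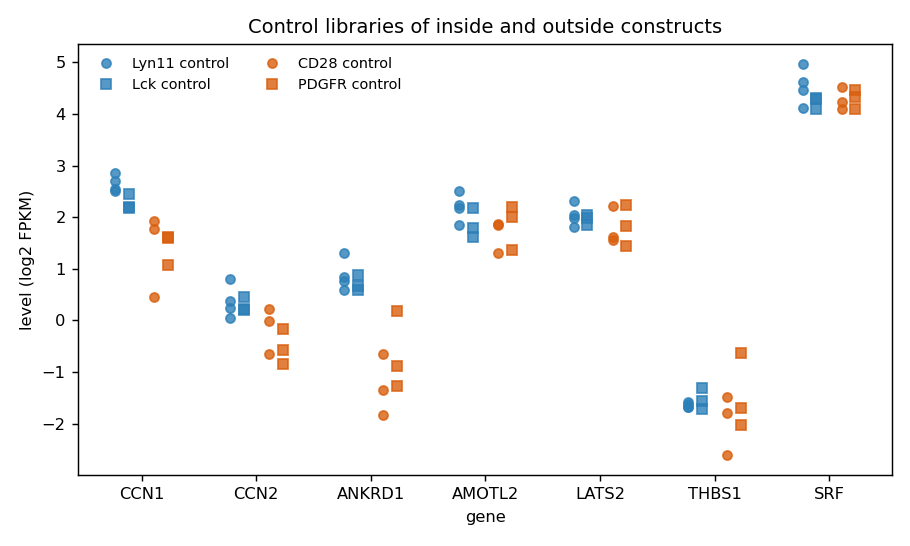
Level (log2 FPKM, vertical axis) of the 7 genes (horizontal axis) in the 13 control libraries, inside constructs in blue to the left of outside constructs in orange, with circles and squares for the constructs of each side. CCN1 and ANKRD1 points of inside controls lie above all outside controls, and AMOTL2, LATS2, THBS1 and SRF points overlap.

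Control libraries were also compared within a side. CCN1 in Lyn11 controls minus Lck controls was 0.38 ± 0.26 (limma adjusted p = 0.884), and in CD28 controls minus PDGFR controls -0.05 ± 0.27 (limma adjusted p = 0.961). None of the 6 genes passed in either contrast by limma or by limma voom or had an unadjusted p under 0.05, where 0.0% and 0.269% of all genes passed by limma and 1475 and 2980 genes had an unadjusted p under 0.05. The widest estimates were -0.62 ± 0.46 for ANKRD1 between the outside controls and 0.38 for CCN1 between the inside controls.

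The genes whose level followed that of CCN1 most closely over the 26 libraries were PPP1R15A, a stress-induced regulatory subunit of protein phosphatase 1, with Pearson r = 0.924, and DUSP1, an immediate early phosphatase of MAP kinases, with r = 0.915. TIMP3, a matrix metalloproteinase inhibitor, TENT5C, a poly(A) polymerase, and JUN, a subunit of AP-1, followed at 0.912, 0.910 and 0.889, among 15090 genes compared. Over the 8 group means the leading genes were PPP1R15A at 0.987, CPM at 0.975, TENT5C at 0.975, DUSP1 at 0.973 and RNF103 at 0.972, so 3 of 5 were shared. Within the set, the correlation with CCN1 over libraries was 0.800 for CCN2, 0.648 for ANKRD1, 0.569 for AMOTL2, 0.441 for THBS1, 0.376 for SRF and 0.342 for LATS2. The 26 points share constructs, labeling state and depth, so these values describe likeness of pattern and carry no test.

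Few other targets of YAP and TEAD passed the threshold under labeling. Of 17 further established targets, 12 passed the filter, and 2 of them rose in labeled libraries averaged over the constructs and 0 fell, where 4.29% of all genes rose and 3.08% fell. The median difference of the 12 was 0.04, against -0.0052 for all genes. F3, which encodes tissue factor, also had an unadjusted p under 0.05 at -0.29 ± 0.13 (limma adjusted p = 0.203). The risers were NT5E and CCDC80. NT5E (chromosome 6, 85449584 to 85495791, plus strand) encodes CD73, a membrane-anchored enzyme that makes adenosine from AMP at the cell surface. It stood at -0.23, -0.18, 0.24 and -0.03 log2 FPKM in Lyn11 labeled libraries, against -1.67, -1.71, -0.77 and -1.41 in Lyn11 controls, and at 0.26, 0.25 and 0.18 in Lck labeled libraries, against -1.39, -1.10 and -1.54 in Lck controls. With CD28 it stood at 0.23, -0.12 and 0.21 log2 FPKM in labeled libraries, against -0.89, -1.60 and -1.51 in controls, and with PDGFR at -0.19, -0.18 and -0.26 in labeled libraries, against -1.74, 0.50 and -1.28 in controls. Only the PDGFR groups overlapped, through control replicate 2, and NT5E rose by 1.25 ± 0.21 on average (limma adjusted p = 0.000476). Among controls, PDGFR replicate 2 alone was above 0 log2 FPKM, the filter level, so NT5E entered the fit through its labeled libraries. Its call and its part in the count of 2 risers are tied to that selection. The rise of NT5E was larger without CD28 labeled replicate 2 and PDGFR control replicate 2, at 1.44 ± 0.16. CCDC80 (chromosome 3, 112596794 to 112649530, minus strand), which encodes a secreted matrix protein, rose by 0.56 ± 0.10 (limma adjusted p = 0.000945), with group means of 0.72, 0.98, 1.22 and 0.69 log2 FPKM in Lyn11, Lck, CD28 and PDGFR labeled libraries, against 0.32, 0.35, 0.42 and 0.26 in their controls. Both genes passed in every alternative run, with smaller differences of 0.47 for NT5E and 0.35 for CCDC80 after a further 1 FPKM was added.

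Components of the Hippo pathway did not pass under labeling. Of 27 listed, 26 were tested, with 0 rising and 0 falling by limma or by limma voom. Of all genes 4.29% rose and 3.08% fell by limma, so 0 calls among 26 do not set the list apart. An unadjusted p under 0.05 was found for 2 (AJUBA and WWC1), and the median difference was 0.05. The coactivators YAP1 and WWTR1, which encodes TAZ, gave -0.01 ± 0.09 and 0.05 ± 0.11, and TEAD1 to TEAD4 lay between -0.06 and 0.15. Between the control lines the list did vary, with TEAD1 (0.36 ± 0.07, limma adjusted p = 0.00309), LATS1, AMOTL1 and WWC2 higher inside and AMOT, the founding angiomotin, lower inside by 0.70 ± 0.11 (limma adjusted p = 0.000381), as was LIMD1. That is 4 of 26 higher and 2 lower, where 7.34% and 3.84% of all genes were. The call of TEAD1 and AMOT was kept in all 34 alternatives, that of LATS1 in 23, LIMD1 in 24, AMOTL1 in 30 and WWC2 in 9. With limma voom, which tested 24 of the components, AMOT, LIMD1, TEAD1 and VGLL4 were called. Of the 12 tested YAP and TEAD targets, CRIM1 (0.47 ± 0.10, limma adjusted p = 0.00714) and PTPN14 (0.37 ± 0.07, limma adjusted p = 0.00246) were called higher in inside controls and 0 were called lower. The lowest difference of that list was -0.51, and 6 of the 12 had an unadjusted p under 0.05. With limma voom, which tested 9 of them, CRIM1, PTPN14 and FJX1 were called.

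Targets of SRF were listed by cofactor. Of 24 targets assigned to the MRTF cofactors, 21 were tested, with a median labeled minus control difference of 0.05. VCL, which encodes the focal adhesion protein vinculin, rose by 0.18 ± 0.05 (limma adjusted p = 0.0253), and its exons face AP3M1. MYL9, a myosin light chain, fell by 0.72 on average (standard error 0.22, limma adjusted p = 0.0477), on 12 to 47 reads a labeled library and 21 to 74 a control. Among labeled libraries only PDGFR replicate 2 was above 0 log2 FPKM, the filter level, at 0.01. MYL9 entered the fit through CD28 and PDGFR controls, where it is high, so its call is tied to that selection. The calls of VCL and MYL9 both depended on single libraries. That of VCL was lost without Lck labeled replicate 1, Lck control replicate 1 or CD28 control replicate 2 and with limma voom, and that of MYL9 in 24 of 34 alternatives. Among single libraries left out, MYL9 passed only without Lyn11 labeled replicate 4, Lyn11 control replicate 3 or 4, Lck labeled replicate 2, CD28 labeled replicate 1 or PDGFR control replicate 1. Of 11 targets assigned to the ternary complex factors, 9 were tested, and 6 of them rose and 0 fell, with a median of 0.94, where 4.29% of all genes rose and 3.08% fell. These were the immediate early genes EGR1, FOS, FOSB, EGR3 and ARC, and MCL1, an antiapoptotic BCL2 relative, which rose by 0.34 ± 0.06 (limma adjusted p = 0.000927). The rise of the immediate early genes was known when that list was drawn up, so its count is not independent evidence. EGR3 lay close to the filter and was tested in 31 alternatives, against 35 for FOS. Its labeled minus control difference ranged from -0.68 with PDGFR to 3.06 with Lck. The call of EGR3 and its part in the count of 6 are tied to the filter. The SRF cofactors MRTFA, MRTFB, ELK1, ELK3 and ELK4, all 5 tested, lay between -0.11 and 0.20, and 0 passed by limma or limma voom or had an unadjusted p under 0.05. At the shares of 4.29% and 3.08% over all genes, 0 calls among 5 do not set them apart.

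Between the control lines, 0 of the 9 tested ternary complex factor targets passed by limma or limma voom, 1 of them (EGR1) had an unadjusted p under 0.05, and 5 of 21 MRTF targets were higher inside (ACTG1, FHL1, TES, TPM4 and VCL) and 2 lower (MYL9 and FILIP1L), where 7.34% of all genes were higher and 3.84% lower. The call of ACTG1 was kept in 9 of 33 alternatives and that of FILIP1L in 25 of 34, against 32 or more for each of the other 5. With limma voom, which tested 14 of the MRTF targets, FHL1, TES, MYL9, FILIP1L and PDLIM7 were called. Of the 20945 genes in that fit, 869 were higher inside and 1482 lower. Among those higher inside, TES, a focal adhesion protein gene, had the largest difference at 0.64 ± 0.11 (limma adjusted p = 0.00132), and MYL9 was lower inside by 1.16 ± 0.31 (limma adjusted p = 0.0192). MYL9 was below 0 log2 FPKM in every inside library and entered the fit through outside controls, where it is high. This call too is tied to that selection. VIM, the intermediate filament gene on the HEK293T marker list, was also higher in inside controls, by 0.60 ± 0.13 (limma adjusted p = 0.00476). It was the 1 gene called by limma among 5 tested markers of that list, whose median difference was -0.08 and lowest -0.47. PAX2, of the same list, had an unadjusted p under 0.05 and was called with limma voom.

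**Figure D5:**
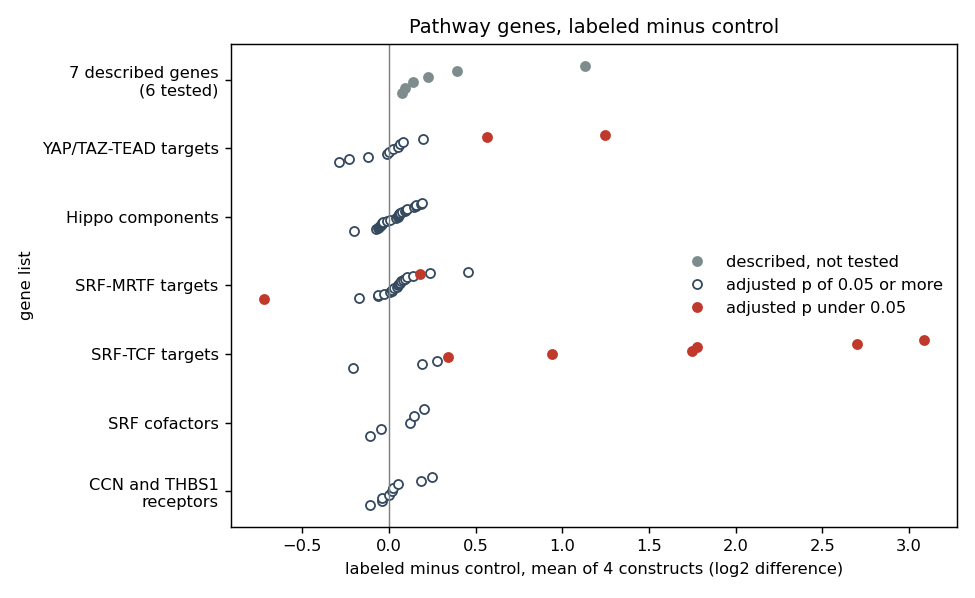
Labeled minus control difference averaged over the 4 constructs (log2 units, horizontal axis) of each tested gene by list (vertical axis). Filled red points passed the threshold, open points did not, and the 6 fitted genes of the set (grey) were not tested; red points are NT5E and CCDC80 among YAP targets, VCL and MYL9 among MRTF targets and 6 of 9 ternary complex factor targets.

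No paralog or receptor passed under labeling. CCN5 was the single other CCN gene that passed the filter, at -0.35 ± 0.26, while CCN3 and CCN6 were in the table below it. THBS3, THBS4 and COMP gave -0.29 ± 0.14, -0.10 ± 0.13 and 0.13 ± 0.21, and the ANKRD1 relatives ANKRD2 and ANKRD23 were below the filter. Of 13 receptors of CCN proteins or thrombospondin-1, 9 were tested and 0 passed by limma or limma voom. Of all genes 4.29% rose and 3.08% fell by limma, so 0 calls among 9 do not set the receptors apart. An unadjusted p under 0.05 was found for 1 receptor gene. That gene was SDC4, which encodes the heparan sulfate proteoglycan syndecan-4, at 0.25 ± 0.09 (limma adjusted p = 0.124). The integrin genes ITGB1 and ITGA6 were higher in inside than outside controls, by 0.50 ± 0.15 and 0.48 ± 0.12 (limma adjusted p = 0.0377 and 0.0169), and passed in 25 and 33 of 34 alternatives. They were 2 of 9 tested receptors, where 7.34% of all genes were higher inside. With limma voom ITGA6 alone was called, where 869 of 20945 genes were higher inside and 1482 lower.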

How the data were processed

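The authors deposited log2 FPKM values for 25745 genes in 26 libraries. The submitters' processing notes name HISAT2 2.1.0, edgeR and the build hg38, without further steps; strandedness and annotation are not given in the sources used here. The values already hold a prior count. With GENCODE 29 exon lengths they gave whole reads for 24220 genes (99.993% of values under 100 reads whole to within 0.05 read); reads are used for depth and in 1 alternative. Identifiers were matched to GENCODE 29, 24075 with version, 1579 without and 91 not at all.

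Groups came from sample titles. Replicate pairs differed by a chi-square of 5.30 to 81.7 per gene, so none was treated as a duplicate. limma 3.58.1 (R 4.3.3) was fitted to the deposited values of the 22284 genes above 0 in at least 3 libraries, with a mean per group, an intensity trend and 18 residual degrees of freedom; two-sided p-values were adjusted by Benjamini-Hochberg over all genes within each of 11 comparisons, and a call is an adjusted p under 0.05. Errors after ± are standard errors unless named SD. Alternatives were no filter or a stricter one, median centring, quantile normalization, construct weights, a further 1 FPKM, limma voom on recovered reads, each construct alone, a replicate block and leaving out single libraries; leaving out CD28 labeled replicate 2 and PDGFR control replicate 2 together, or from their own groups, was chosen after seeing the data. The fit was tested on simulated data. Replicate numbers did not pair samples. Recovered read numbers cover counting error only.

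The members and lists were chosen with earlier results of these data known. Named genes are the 7 members, measured paralogs, from each list the genes called (the 3 largest and 3 smallest on average over constructs where more were called, and all where 5 or fewer were), and the 5 genes most correlated with CCN1 among those with a mean of at least 1. YAP1, WWTR1, the TEAD genes, AJUBA, WWC1, VGLL4, FJX1, the SRF cofactors, SDC4, F3, PDLIM7, VIM and PAX2 were added after their values were seen. Promoters are from RefSeq on GRCh38.p14, 8 starts for 6 of the 7 genes.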

Additional observations from a re-analysis of the deposited data

How the results depend on the processing

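The average CCN1 difference stayed between 0.95 and 1.20 in all alternatives run. Control differences near 0 changed sign: CCN1 in CD28 minus PDGFR controls was 0.0204 with quantile normalization, and SRF there 0.0414 with median centring. With limma voom CCN2 and LATS2 in Lyn11 minus Lck controls were -0.082 and -0.0443, SRF in inside minus outside controls was -0.0023 and AMOTL2 labeling in CD28 minus PDGFR was -0.0334. Leaving out single libraries gave, in CD28 minus PDGFR labeling, -0.15 to 0.59 for CCN1 and -0.12 to 0.31 for AMOTL2, and in Lyn11 minus Lck labeling -0.0196 to 0.26 for AMOTL2. In CD28 minus PDGFR controls it gave -0.32 to 0.42 for CCN1, -0.42 to 0.0066 for AMOTL2, -0.26 to 0.15 for LATS2 and -0.12 to 0.0905 for SRF, and in Lyn11 minus Lck controls -0.0709 to 0.18 for CCN2 and -0.0096 to 0.16 for LATS2. The YAP target count higher was 1 with the stricter filter, since fewer genes were tested, and the count lower was 1 without both libraries with the most genes at 0 reads. The MRTF target count higher was 2 with quantile normalization, 0 with voom and 0 to 2 without single libraries, and the count lower was 0 with the stricter filter, median centring, construct weights or without both libraries, and 0 to 1 without single libraries; the cause was not tested. Same-numbered samples correlated at -0.29 to 0.17 over 13 pairs, 3 of them over 0.1, so the numbers were not taken as pairs; with the replicate block the average CCN1 difference was 1.13, both MRTF counts were 0, and the genes called on average were 794 higher and 497 lower, against 955 and 687 without it. THBS1 was fitted without the filter; leaving out single libraries gave -0.0437 to 0.32 in inside minus outside controls and -0.73 to -0.03 with PDGFR.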
